A study of Mus musculus with 8 samples.

Results

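Monocytes and infiltrating macrophages were examined in ependymomas of EPZFTA-RELA mice (genotype NestinCreERT2;Fus1;RFPTdT), in which a ZFTA-RELA fusion gene is switched on in Nestin-expressing neural cells, and all 4 libraries came from animals with these alleles. They were randomised at 3 weeks of age to 1 intrathecal dose of mavrilimumab, which blocks the GM-CSF receptor by binding its alpha subunit, given at 5 mg/kg, or to a control antibody (vehicle IgG). Tumour or brain tissue of animals aged 6 to 8 weeks was dissociated, stained for leukocytes (CD45) and erythroid cells (Ter119), sorted, and profiled by droplet sequencing in 4 gene expression libraries, 2 per treatment. The study describes the sorted cells as extravascular, that is, cells in vessels were to be gated out, and it pooled tumours within a group for its receptor analysis. It states that the tumours of both groups profiled in this way were taken at recurrence, so the treatment differences below concern that stage. The labels give no number of animals per library, so p-values over libraries measure only the spread between these libraries.

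The cells were selected on their own transcripts. Of 39632 barcodes with at least 1000 unique molecular identifiers (UMIs, 1 per captured transcript), between 200 and 6000 genes and no more than 10% of UMIs from mitochondrial genes, 141 were chosen by 6 criteria. They had at least 2 UMIs of Lyz2, the myeloid lysozyme, and at least 2 over Ccr2, Ly6c2, Ms4a7, F13a1 and Chil3. They had none of the microglial genes P2ry12, Tmem119 and Sall1, of the CD3 genes of T cells, of the neutrophil genes Retnlg and Cxcr2, or of the B cell gene Cd79a. These cells are called gated cells below. The libraries labelled vehicle IgG 1, vehicle IgG 2, mavrilimumab 1 and mavrilimumab 2 held 3, 48, 28 and 62 of them. Barcodes with at least 2 UMIs over P2ry12 and Tmem119 served as microglia and numbered 588, 651, 237 and 806, 2282 in all. No barcode was shared between gated cells of different libraries. Among barcodes just inside the limit, 8 gated cells had exactly 2 UMIs over the 5 positive genes (0, 4, 1 and 3 by library). Another 17 barcodes with 1 UMI passed all other criteria (1, 10, 1 and 5).

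Circulating monocytes arise in bone marrow from granulocyte-monocyte progenitors and fall into a classical kind, rich in Ly6C and the chemokine receptor CCR2, and a patrolling kind that stays in vessels. Classical monocytes that enter tissue can lose Ly6C and become macrophages or cells that resemble dendritic cells, while microglia descend from yolk sac precursors and renew in the brain. GM-CSF acts on myeloid cells through a receptor made of a specific alpha chain (Csf2ra) and a signalling beta chain (Csf2rb).

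The treatment labels carry a limit that touches each direction given here. In 3 of 3 T cell receptor files examined, the sample name inside the file gives the other treatment than the label. Of 193 receptor barcodes under vehicle IgG 1, 182 were kept barcodes of expression library vehicle IgG 1. Of 2749 under mavrilimumab 1, 2491 were kept barcodes of expression library mavrilimumab 2, and of 5659 under mavrilimumab 2, 4867 were in mavrilimumab 1. All directions below follow the labels of the expression libraries. The libraries also differed in depth: the files held 24354457, 148657643, 35785802 and 87127346 UMIs, and the median UMIs per gated cell were 20579, 4978, 6699.5 and 17419. In vehicle IgG 2, 46 of 48 gated cells carried a UMI of a list of 20 neural or tumour genes, against 1 of 3, 5 of 28 and 15 of 62 elsewhere. That list leaves out Vim, Mbp and Nfix, dropped after their levels in gated cells were seen. With them it summed to 703, 3501, 2434 and 4589 CPM in gated cells by library. Without them, the summed level in vehicle IgG 2 was 1529 CPM (counts per 1000000 UMIs of the summed cells) in gated cells and 10532 CPM in empty droplets, compared with 18.0, 28.9 and 40.9 CPM in gated cells of vehicle IgG 1, mavrilimumab 1 and mavrilimumab 2.

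Gated cells made up 0.305% of barcodes in vehicle IgG 1 (95% exact binomial interval 0.0629 to 0.888) and 0.179% in vehicle IgG 2 (0.132 to 0.238). They made up 0.437% in mavrilimumab 1 (0.290 to 0.631) and 1.13% in mavrilimumab 2 (0.867 to 1.45). Both mavrilimumab libraries lay above both vehicle libraries, by 0.541 percentage points on average (two-sided exact permutation test, p = 0.33, the smallest that 2 libraries against 2 allow). The difference was 0.194 points without mavrilimumab 2 and 0.223 points without the cells that carried dendritic genes, described below. That share depends on how many tumour and lymphoid barcodes a library holds. As a share of gated cells plus microglia, the values were 0.508%, 6.87%, 10.6% and 7.14%, and the 5.17 points between the group means (exact permutation p = 0.33) rested on vehicle IgG 1: without it the difference was 1.99 points. After every barcode was thinned to 1000 UMIs before selection, 2, 27, 21 and 31 gated cells remained, and the difference in the share of barcodes was 0.294 points. The shares of gated cells plus microglia were then 0.565%, 8.77%, 12.1% and 5.94%. Mavrilimumab 2 thus lay below vehicle IgG 2, and the group means differed by 4.34 points (exact permutation p = 0.67). The intervals cover counting error only.

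**Figure D1:**
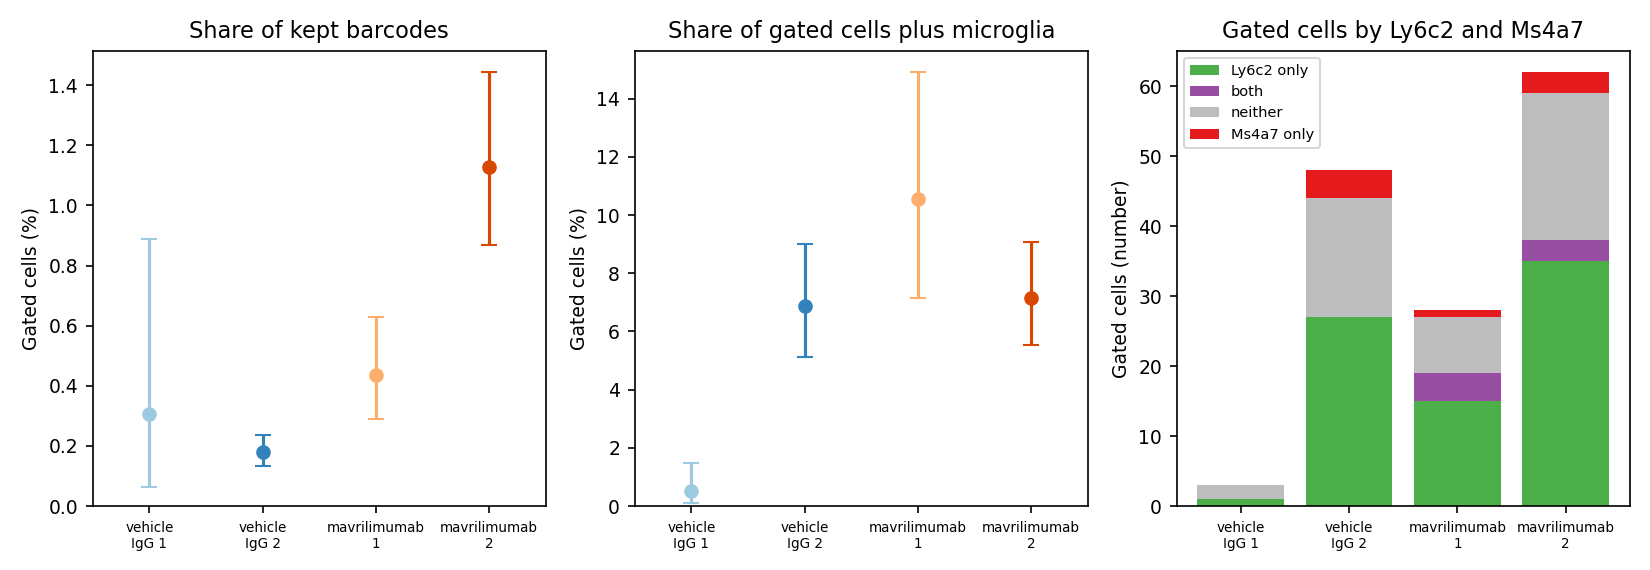
Gated cells per library as a share of all kept barcodes (left) and of gated cells plus microglia (middle), in percent with 95% exact binomial intervals, and their number by detection of Ly6c2 and Ms4a7 (right). The share of kept barcodes ran from 0.179% to 1.13%, and 3 gated cells came from vehicle IgG 1.

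The gated cells held transcripts of blood monocytes. Plac8, a monocyte gene outside the selection, had 1262 CPM in vehicle IgG 1, 1832 CPM in vehicle IgG 2, 1948 CPM in mavrilimumab 1 and 1356 CPM in mavrilimumab 2, and a UMI of it was found in 3 of 3, 37 of 48, 26 of 28 and 56 of 62 cells. Its level in microglia of the last 3 libraries was 18.7, 113 and 128 CPM. Among T cells, which share the sort, 19.0%, 26.0%, 18.5% and 45.0% had a Plac8 UMI by library, at median depths of 12942, 2621.5, 3815 and 11119 UMIs, so its detection is not particular to the gated cells. Of the 12 markers of border macrophages, which line the meninges and vessels, 9 were detected, with a UMI in 0 of 3, 14 of 48, 18 of 28 and 41 of 62 gated cells. Their summed level was 0, 58.7, 351 and 143 CPM, against 563, 185, 470 and 387 CPM in microglia of the same libraries. Pf4, Lyve1 and Cd209f had no UMI in any of the 141 cells, and a count of 0 among the 1075582 UMIs of mavrilimumab 2 allows up to 2.79 CPM.

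Some gated cells carried markers of other cells. The 12 T cell genes outside the gate summed to 0 to 121 CPM and the 7 erythroid and platelet genes to 0 to 3.72 CPM. The neutrophil list summed to 1157 CPM in vehicle IgG 2, led by S100a8 (694 CPM), against 162, 226 and 462 CPM in the other libraries. The dendritic list summed to 54.1, 867, 1198 and 1838 CPM, with Ccr7 and Cacnb3 of its 15 genes at 0. At least 3 of the dendritic genes Cd209a, Flt3, Zbtb46, Xcr1 and Clec9a were seen together in 49 of 141 gated cells (34.8%), in 0, 11, 6 and 32 by library. In T cells Flt3 and Clec9a had a UMI in at most 0.86% and 0.31% of cells. These dendritic genes go against the name monocytes and macrophages for part of the cells, so the selection rather than a cell type is named below.

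Compared with microglia of the same libraries, the gated cells were higher in monocyte, adhesion and antigen presentation genes. They were lower in resident macrophage genes and in 12 of 20 genes of the neural or tumour list. The selection fixes this contrast, so it is described without a test, over the 3 libraries with at least 20 cells of each kind. Of 7489 genes with at least 20 CPM on average, 342 (4.57%) were at least 2-fold higher in CPM in every library and 658 (8.79%) at least 2-fold lower, with 1 CPM added to each value and the genes of the gates left out. In the neural or tumour list 12 of 20 genes were lower and 1 higher (median log2 ratio -2.31). Without Vim, Mbp and Nfix, that list summed to 7884 CPM in microglia of vehicle IgG 2 and 1529 CPM in its gated cells. In mavrilimumab 1 and mavrilimumab 2 microglia held 297 and 513 CPM and gated cells 28.9 and 40.9 CPM. With Vim, Mbp and Nfix the direction of the sum depended on the library. Gated cells of vehicle IgG 2 then held 3501 CPM against 9042 CPM in microglia. They held more than microglia in vehicle IgG 1 (703 against 150 CPM), mavrilimumab 1 (2434 against 664 CPM) and mavrilimumab 2 (4589 against 872 CPM). The part of neural RNA in the genes called lower was not tested.

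In the classical monocyte list, 13 of 20 genes were higher in all 3 libraries and none lower, with a median log2 ratio of 3.36 against -0.07 for all genes. Hp, haptoglobin, was among the genes with the largest ratios, with 450, 404 and 192 CPM in gated cells of vehicle IgG 2, mavrilimumab 1 and mavrilimumab 2 and 0.256, 1.27 and 8.25 CPM in microglia. Ifitm6 had 173, 505 and 309 CPM against 0.768, 1.90 and 9.09 CPM. Clec4e, a receptor for mycobacterial and damage ligands, had 81.5, 385 and 76.2 CPM against 0, 0.634 and 15.4 CPM. For these 3 genes the gated cells of each library lay far above its microglia.

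The adhesion and migration list stood out by its count, with 17 of 21 genes higher and 1 lower (Cd9). Itga4, the alpha 4 integrin used to enter the brain, had 209, 433 and 419 CPM against 20.7, 96.4 and 42.2 CPM in microglia. Lgals3 (galectin-3), of the maturing macrophage list, had 994, 1356 and 1452 CPM against 26.6, 26.0 and 71.4 CPM.

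Antigen presentation genes were part of the same contrast. Of 10 MHC class II genes measured, 7 were higher and none lower (median log2 ratio 3.30), and 8 of 11 dendritic genes were higher. H2-Aa had 2217, 7104 and 4086 CPM in gated cells and 4.61, 349 and 294 CPM in microglia. Cd74, the invariant chain that escorts class II molecules, had 6395, 22458 and 12125 CPM against 58.4, 1155 and 912 CPM. Cd209a, a lectin of monocyte-derived dendritic cells, had 176, 274 and 529 CPM against 0, 0 and 11.8 CPM. None of the 23 MHC class I genes was called in either direction.

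**Figure D2:**
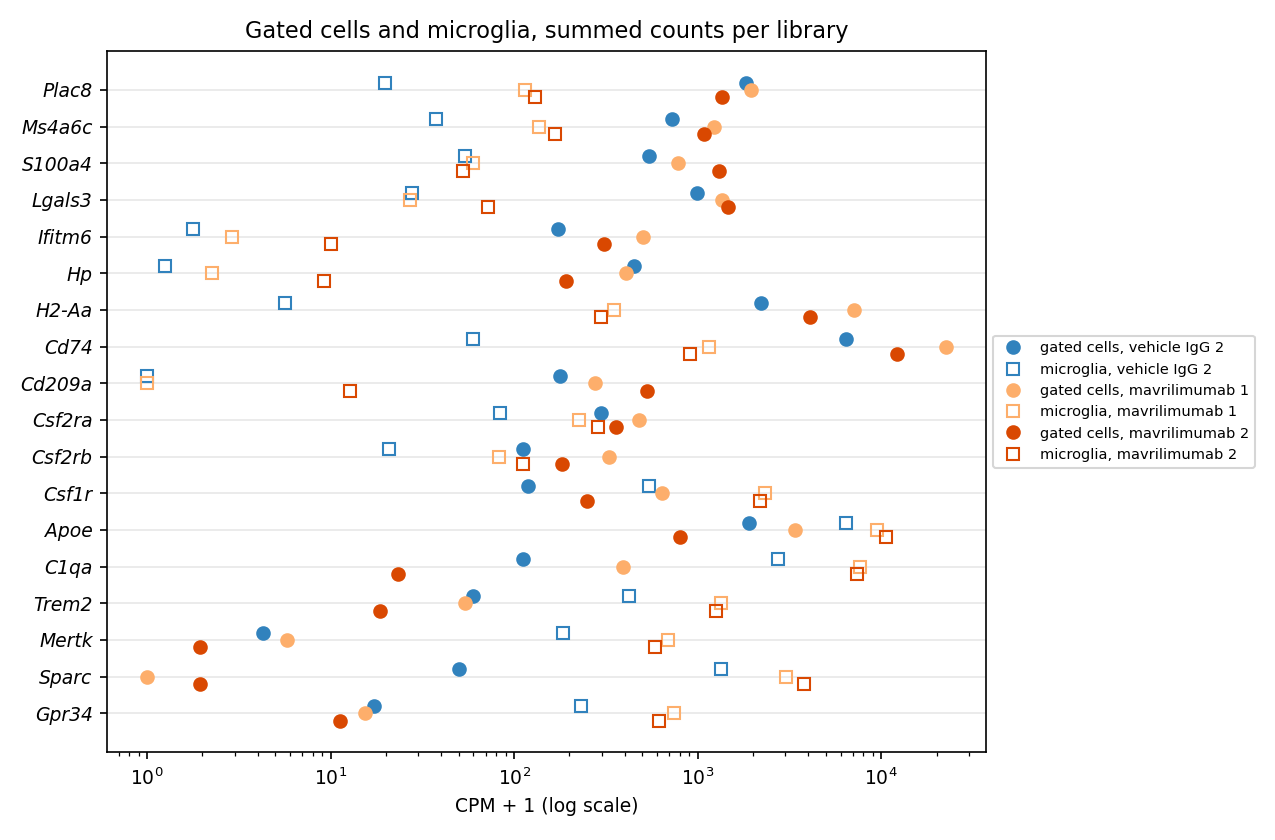
CPM plus 1 on a log axis for 18 genes in gated cells (filled circles) and microglia (open squares) of the 3 libraries with at least 20 of each. Hp lay at 192 to 450 CPM in gated cells and at 0.256 to 8.25 CPM in microglia, and C1qa at 22.3 to 390 CPM against 2732 to 7630 CPM.

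Genes of resident macrophages ran the other way. In the homeostatic microglia list, with the genes of the gate left out, 15 of 18 were lower and none higher (median log2 ratio -5.57), and in the maturing macrophage list 12 of 21 were lower and 1 higher, Lgals3. C1qa, a chain of complement C1q, had 111, 390 and 22.3 CPM in gated cells against 2732, 7630 and 7343 CPM in microglia. Mertk, a receptor for the uptake of dying cells, had 3.26, 4.81 and 0.930 CPM against 183, 686 and 583 CPM. Csf1r, the CSF1 receptor on which microglia depend, had 117, 635 and 248 CPM against 545, 2337 and 2173 CPM. Sparc, the gene with the lowest ratio, had 48.9, 0 and 0.930 CPM against 1335, 3043 and 3789 CPM. The value in vehicle IgG 2 is the highest, and in that library gated cells also carried the neural RNA given above, whose part in it was not tested.

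The GM-CSF receptor genes were present in the gated cells of each library. Csf2ra, the chain bound by mavrilimumab, had 234, 297, 476 and 359 CPM in vehicle IgG 1, vehicle IgG 2, mavrilimumab 1 and mavrilimumab 2, with a UMI in 3 of 3, 38 of 48, 27 of 28 and 61 of 62 cells and in 1.94% to 6.57% of T cells. Csf2rb, the beta chain shared with the IL-3 and IL-5 receptors, had 234, 111, 327 and 181 CPM. Against microglia, Csf2ra lay at 297, 476 and 359 CPM compared with 82.5, 225 and 286 CPM in the same order. Of 14 genes of the GM-CSF and CSF1 list, 3 were higher (Jak2, Pim1, Il3ra) and 2 lower (Csf1r, Csf1). Among all genes, 4.57% were higher and 8.79% lower. The ligand Csf2 had no UMI in any gated cell. Between treatments neither receptor chain passed the test described below (Csf2ra log2 difference 0.53, SE 0.41, edgeR adjusted p = 0.611; Csf2rb 1.21, SE 0.50, adjusted p = 0.293).

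By Ly6c2 and Ms4a7, 78 gated cells had Ly6c2 only, 7 had both, 48 had neither and 8 had Ms4a7 only. Ly6c2 marks classical monocytes, and Ms4a7 rises in macrophages derived from them. The 8 cells with Ms4a7 only came from vehicle IgG 2 (4), mavrilimumab 1 (1) and mavrilimumab 2 (3), so no library held 20 of each kind and no gene was called between them. Of cells with one of the pair only, the share with Ly6c2 was 87.1% in vehicle IgG 2 (95% exact binomial interval 70.2 to 96.4), 93.8% in mavrilimumab 1 (69.8 to 99.8) and 92.1% in mavrilimumab 2 (78.6 to 98.3). The intervals overlap, and the difference of 5.83 points could not be tested below p = 0.33 (exact permutation p = 0.33, 1 library against 2). It ranged from 0.861 points with at least 3 UMIs of the positive genes to 15.2 points without marked doublets. Vehicle IgG 1, left out for its 3 gated cells, had 1 such cell, with Ly6c2 (100%). With it the direction turned, to a mean of 93.5% in vehicle IgG and 92.9% in mavrilimumab, a comparison added after the data were seen. Ly6c2 is also made by T cells, where 25.3% to 42.5% of cells in these libraries had a UMI.

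The cells with Ms4a7 only carried macrophage genes. All 8 had UMIs of Apoe, C1qa and Trem2, and none had Plac8, Ccr2, Chil3 or F13a1. A UMI of Apoe alone is no mark of these cells, since 56.0% of T cells of vehicle IgG 2 had one, while C1qa was seen in 1.12% to 7.40% of T cells by library. Since 2 UMIs of the 5 positive genes were required, cells without the other 4 entered by Ms4a7 alone. Their summed Apoe, the lipid carrier of phagocytes, was 36420 CPM and their C1qa 3688 CPM, compared with 482 and 29.6 CPM in cells with Ly6c2 only. The maturing macrophage list had a median of 658 UMIs per 10000 against 36.1 in cells with Ly6c2 only. Microglia held that list too, at 24711, 53931 and 54702 CPM in vehicle IgG 2, mavrilimumab 1 and mavrilimumab 2. The C1qa level lay within the range given above for microglia. The homeostatic microglia list was also highest in cells with Ms4a7 only, at a median of 106 UMIs per 10000. It was 99.3 in cells with neither gene and 44.7 with Ly6c2 only. The cells with Ms4a7 only were the shallowest, with a median of 2165.5 UMIs (1229 to 12441) against 10872 with Ly6c2 only. P2ry12, Tmem119 and Sall1 had to be at 0 for entry. The deepest of the cells with Ms4a7 only held 12441 of their 28473 UMIs. Whether some of them were microglia with these genes undetected was not tested.

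The 48 cells with neither gene, which the selection let in only through Ccr2, F13a1 or Chil3, had the highest MHC class II level in the pooled cells. Their median was 398 UMIs per 10000 against 106 in cells with both genes, 17.01 with Ly6c2 only and 2.05 with Ms4a7 only. By library it was 411 in vehicle IgG 2, where cells with Ly6c2 only had 2.13, 572 in mavrilimumab 1 against 510 in the 4 cells with both genes, and 385 in mavrilimumab 2 against 27.6 in the 3 with both. In vehicle IgG 1 the 2 cells with neither gene had 0.411 and the 1 with Ly6c2 only 0.486. For MHC class I the medians were 117, 153, 86.6 and 103 in the same order. Between cells with Ly6c2 only and with neither, 3668 genes at 50 CPM or more on average were compared, and 47 (1.28%) were at least 2-fold higher and 67 (1.83%) at least 2-fold lower in each of the 3 libraries, a comparison added after the data were seen. Xcr1, the chemokine receptor of cross-presenting dendritic cells, had 483, 314 and 282 CPM in cells with neither gene of vehicle IgG 2, mavrilimumab 1 and mavrilimumab 2, and 62.7, 0 and 1.67 CPM in cells with Ly6c2 only. A UMI of Xcr1 was seen in 10 of 48, 2 of 28 and 7 of 62 gated cells of these libraries, so few cells made up its sums. Itgae, its integrin companion CD103, had 287, 269 and 311 CPM against 17.9, 0 and 0 CPM. Id2, a transcription factor needed by these dendritic cells, and Wdfy4, needed for cross-presentation, were lower in Ly6c2-only cells as well, with Id2 at 94.1, 124 and 53.6 CPM against 1137, 777 and 894 CPM.

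Genes higher in cells with Ly6c2 only included Fn1. This gene, which encodes fibronectin, had 533, 506 and 594 CPM against 39.2, 149 and 31.1 CPM in cells with neither gene. Of the cells with at least 3 dendritic genes, 26 were in the class with neither gene and 23 in that with Ly6c2 only, and none had Ms4a7.

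Patrolling monocyte genes were found together in few cells, in a sort described as extravascular. At least 4 of Ace, Adgre4, Treml4, Eno3, Ear2 and Spn were seen in 8 gated cells, among them all 3 cells of vehicle IgG 1, none of 48 in vehicle IgG 2, 3 in mavrilimumab 1 and 2 in mavrilimumab 2. Ear2, an eosinophil-associated ribonuclease of these cells, had 1460 CPM in vehicle IgG 1 and 16.3, 86.6 and 47.4 CPM in the others. Nr4a1, the factor on which patrolling monocytes depend, had 1424 CPM against 61.9, 106 and 90.2 CPM. MHC class II genes were nearly absent from the same 3 cells, which had 2 UMIs of Cd74 and no H2-Aa. With 3 cells, vehicle IgG 1 entered no gene test of the main comparison.

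**Figure D3:**
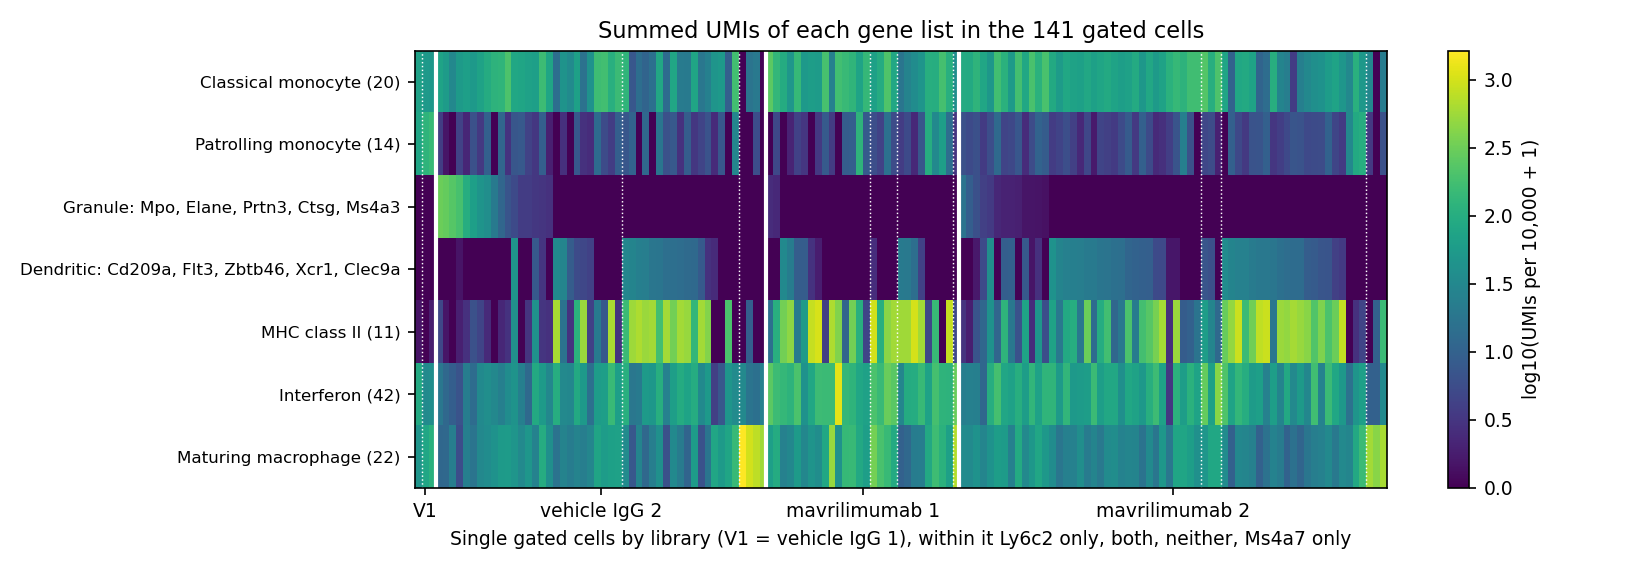
Summed UMIs of 7 gene groups per 10000 UMIs (colour, log10 scale with 1 added) in each of the 141 gated cells, grouped by library and, between dotted lines, by Ly6c2 and Ms4a7. Granule genes were bright in 8 cells of vehicle IgG 2, MHC class II in cells with neither gene, and maturing macrophage genes in the 8 cells with Ms4a7 only.

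Granule genes of monocyte and neutrophil precursors were found in a few Ly6c2-only cells, 8 of 10 of them from vehicle IgG 2. At least 3 of Mpo (myeloperoxidase), Elane (neutrophil elastase), Prtn3 (proteinase 3), Ctsg (cathepsin G) and Ms4a3 (a membrane gene of granulocyte-monocyte progenitors) were seen in 8 of 48 gated cells of vehicle IgG 2 and 2 of 62 of mavrilimumab 2, and in none of 3 and 28 in the other libraries. The 8 cells held 2205 UMIs of the 5 genes. All 10 had Ly6c2 only, and none held 3 of the dendritic genes. In T cells of vehicle IgG 2, at a median of 2621.5 UMIs, Mpo had a UMI in 0.02% of cells and Elane and Ms4a3 in none, compared with 16.7%, 22.9% and 14.6% of gated cells at a median of 4978 UMIs. After gated cells were thinned to 3000 UMIs, Prtn3 was seen in 35.9% of 39 cells in vehicle IgG 2, 0% of 28 in mavrilimumab 1 and 6.78% of 59 in mavrilimumab 2. Mki67, a proliferation gene, was seen in 38.5%, 7.14% and 8.47% of these cells. A score of simulated doublets (barcodes that hold a pair of cells) marked 5 of the 8 cells, in a library where it marked 15 of 48 gated cells and 21.4% of all kept barcodes. The share marked in a library was preset at 0.8% per 1000 kept barcodes, so 21.4% follows from that setting and is no measured doublet rate. All 5 genes were still called by treatment without the marked doublets.

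Treatment was compared on counts summed per library over the gated cells, with the quasi-likelihood test of edgeR at a false discovery rate of 0.05. The fit held vehicle IgG 2, mavrilimumab 1 and mavrilimumab 2, so 1 library stood for vehicle IgG and was assumed to vary like the others. Of the 6487 genes in the fit, 86 (1.33%) passed, with 5 higher (0.0771%) and 81 lower (1.25%) in mavrilimumab. The treatment difference departed from that in microglia of the same libraries for 291 of 12795 genes (2.27%), 127 upward (0.993%) and 164 downward (1.28%). In fits that also held vehicle IgG 1, it was 1 with all libraries, 5 without mavrilimumab 2, 20 without mavrilimumab 1 and 249 without vehicle IgG 2. In such sums, a change in the kinds of cells and a change within a cell cannot be told apart. In several alternatives below some of the 86 genes did not pass the low-count filter and were not tested again. Of 28 of them followed by name, 24 were tested without the cells that carried granule genes and 19 without marked doublets. After subtraction of the empty-droplet profile 18 were tested, with vehicle IgG 1 added 8, and without vehicle IgG 2 8. Of the 86 genes, 22 were called without the cells that carried granule genes, 19 without marked doublets, 8 after subtraction of the empty-droplet profile, and none with vehicle IgG 1 added, where 168 genes had an unadjusted p under 0.05. Without vehicle IgG 2, which left the 3 cells of vehicle IgG 1 as control, 22 genes were called and 0 of them were among the 86. Those 22 included the patrolling genes Ace, Ear2, Treml4 and Nr4a1 and the MHC class II genes H2-Aa, H2-Ab1 and H2-Eb1, named here after their calls were seen. With vehicle IgG 2 kept and vehicle IgG 1 added, 9 genes were called without mavrilimumab 1 and 25 without mavrilimumab 2.

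Progenitor granule genes were among the largest falls. Mpo had 2067 CPM in vehicle IgG 2 (634 UMIs), 0 in mavrilimumab 1 and 0.930 CPM in mavrilimumab 2 (1 UMI). The 634 UMIs sat in 8 of 48 cells, and 1 cell held 207 of them. The ratio of pooled counts was 2652 (counting interval 474 to 104900). That interval, like the one for Ttr below, takes each UMI as independent. It leaves out the spread between cells and between libraries. Prtn3 had 2650, 9.62 and 50.2 CPM (log2 difference -6.10, SE 0.56, edgeR adjusted p = 0.000144), and Elane 1405, 0 and 26.0 CPM. Ctsg had 815, 0 and 2.79 CPM. Ms4a3 had 342 CPM and no UMI in either mavrilimumab library, at least 146-fold lower when the floor of 3 counts is taken over both libraries. All 5 were at 0 in the 3 cells of vehicle IgG 1. Of the 10 progenitor genes tested, 1 had a positive difference (median log2 difference -4.91, against 0.02 for all genes). Ms4a3, without a UMI in the mavrilimumab libraries, entered the fit through vehicle IgG 2 alone and could only fall. Mpo and Ctsg were near 0 there too, which shapes this median. The cells that carried granule genes were picked by Mpo, Elane, Prtn3, Ctsg and Ms4a3. Once these cells were left out, Prtn3 was the one of the 5 still tested. It was not called, which follows from that choice of cells. Cxcl2, Ccl3 and Ttr, which did not enter the choice, were still called.

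Neural and choroid plexus genes made up a second part of the calls. In the neural or tumour list 2 of 15 differences were positive (median log2 difference -5.26, against 0.02 for all genes). Genes of it such as Tshz2 and Ctnna2, without a UMI in the mavrilimumab libraries, entered the fit through vehicle IgG 2 alone. They could only fall, which shapes this median. Ttr, the transthyretin of choroid plexus, had 1571 CPM in vehicle IgG 2 and 0 and 0.930 CPM in the mavrilimumab libraries (ratio of pooled counts 2017, counting interval 360 to 79810; edgeR adjusted p = 6.92e-06). The other genes with the largest falls by the naming rule were Ms4a3, Mpo, Tshz2, Ptprz1, Fgf14, Map2, Ncam2, Ctnna2 and Cdh2, the last 7 expressed in neural cells and all without a UMI in the mavrilimumab libraries, at least 34.9-fold to 47.4-fold lower. The same RNA was found in other cells of the library: Lsamp had a UMI in 33.3% of gated cells and 36.0% of T cells of vehicle IgG 2, and Ttr in 12.5% and 18.5%. Empty droplets there held 1794 CPM of Ttr. For both genes the share of gated cells lay below that of T cells. The 482 Ttr UMIs of vehicle IgG 2 sat in 6 of 48 gated cells, and Ttr was still called after subtraction of the empty-droplet profile (log2 difference -12.53, edgeR adjusted p = 0.013). The gated cells were deeper than the T cells (median 4978 against 2621.5 UMIs). The part of free RNA in these differences was not tested.

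**Figure D4:**
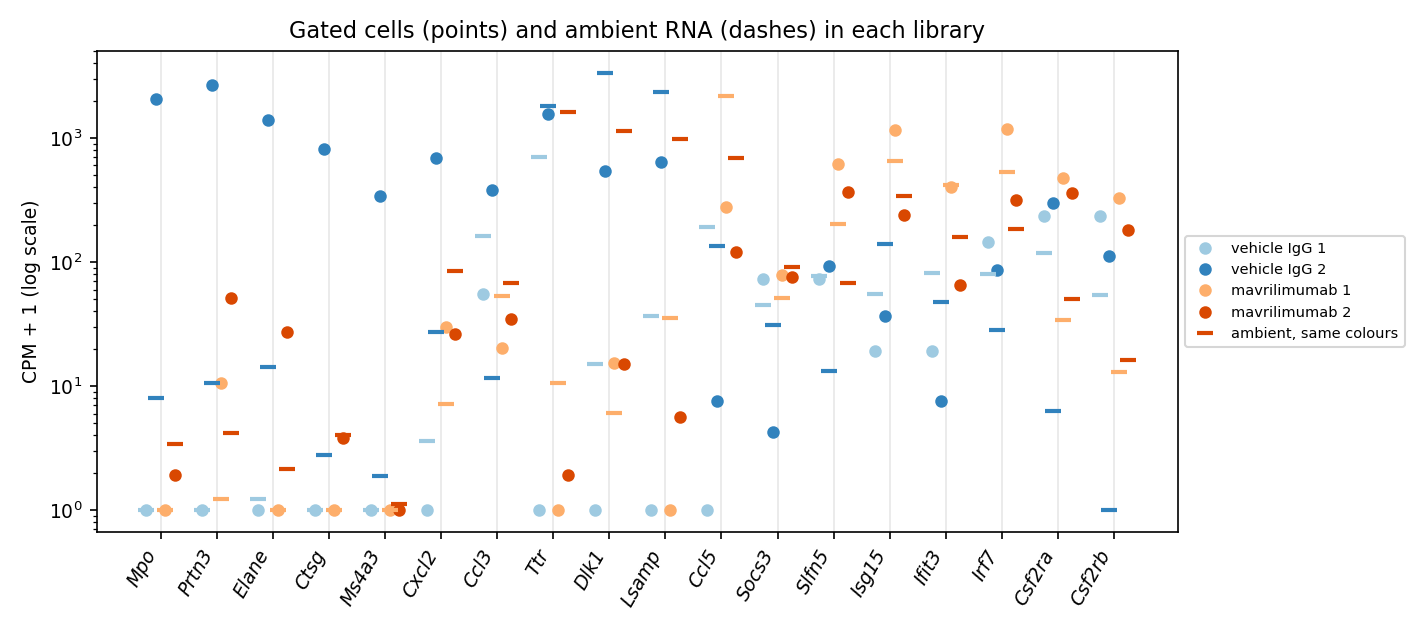
CPM plus 1 on a log axis for 18 genes in gated cells (points) and in empty droplets (dashes) of each library. Granule genes were high in gated cells of vehicle IgG 2 and low in its empty droplets, whereas Dlk1 and Lsamp were higher in the empty droplets of that library than in its gated cells.

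Chemokine genes moved in both directions. Cxcl2, a neutrophil attractant, had 694 CPM in vehicle IgG 2 (9 of 48 cells), 28.9 CPM in mavrilimumab 1 (1 of 28) and 25.1 CPM in mavrilimumab 2 (5 of 62; log2 difference -4.65, SE 0.42, edgeR adjusted p = 0.000135). Ccl3 had 381, 19.2 and 33.5 CPM (adjusted p = 0.00145 by edgeR) and Ccl4 176, 9.62 and 26.0 CPM. In the 3 cells of vehicle IgG 1, Cxcl2 and Ccl4 had no UMI and Ccl3 had 54.1 CPM (3 UMIs), so the high level was seen in vehicle IgG 2 and not in the other vehicle library. Single cells weighed on it: in vehicle IgG 2, 1 cell held 81 of 213 UMIs of Cxcl2, and 1 held 34 of 117 of Ccl3. A cell of 1441 UMIs with neither Ly6c2 nor Ms4a7 held 142 UMIs of the chemokine list and 88 of the neutrophil list. Ccl5, a T cell attractant, rose from 6.52 CPM to 274 and 119 CPM (log2 difference 4.85, SE 0.85, edgeR adjusted p = 0.0152). It was seen in 1 of 48, 4 of 28 and 5 of 62 cells, and empty droplets of mavrilimumab 1 held 2195 CPM of it. Of the 15 chemokine genes tested, 11 had a positive log2 difference (median 1.27, against 0.02 for all genes).

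The other 4 genes called higher were Socs3, Uba7, Amz1 and Slfn5. Socs3, an inhibitor of cytokine signalling, had 3.26, 77.0 and 75.3 CPM, and 72.1 CPM in the 3 cells of vehicle IgG 1. Uba7, the enzyme that activates ISG15, had 3.26, 67.3 and 65.1 CPM. Amz1, a metalloprotease gene, had 9.78, 91.4 and 100.4 CPM, and Slfn5, a Schlafen gene, 91.3, 611 and 368 CPM. In each of these genes both mavrilimumab libraries lay above vehicle IgG 2. None of the 5 passed with DESeq2 size factors, where the 50 genes called were all lower, or at a minimum of 2000 UMIs, where 47 were. None passed after subtraction of the empty-droplet profile or without marked doublets either, although all kept their direction, with log2 differences of 2.43 to 8.31 and 1.91 to 9.52. Fewer genes and counts entered those fits, and the part of free RNA or doublets in the 5 differences was not tested.

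Of 41 interferon-response genes tested, 1 passed (Slfn5). Of the 41 differences, 40 were positive, against 50.9% of all genes, with a median log2 difference of 2.30 (2.18 with genes at 0 in a group set to their bound) against 0.02 for all genes. Most differences were positive in other lists too, at 14 of 14 genes of the GM-CSF and CSF1 list, 12 of 12 checkpoint genes, 19 of 20 Fc, scavenger and complement genes, 20 of 21 adhesion genes, 23 of 25 transcription factors, 20 of 23 MHC class I genes and 11 of 12 patrolling genes, with medians of 0.76 to 1.73. Isg15, a ubiquitin-like modifier, had 18.0, 35.9, 1164 and 240 CPM in vehicle IgG 1, vehicle IgG 2, mavrilimumab 1 and mavrilimumab 2 (edgeR adjusted p = 0.0519). Irf7, the factor that amplifies interferon production, had 144, 84.8, 1183 and 316 CPM, and Ifit3 had 18.0, 6.52, 404 and 64.2 CPM. Rsad2 (viperin) had 18.0, 0, 293 and 40.0 CPM. Mavrilimumab 1 was the highest library for all 4, and its empty droplets also held the most Isg15, 657 CPM against 54.6, 139 and 339 CPM in vehicle IgG 1, vehicle IgG 2 and mavrilimumab 2. The summed list had a median of 32.2 UMIs per 10000 in cells of vehicle IgG 2, 140 in mavrilimumab 1 and 66.4 in mavrilimumab 2. Summed over cells it was 5464 CPM in vehicle IgG 1, 3472 in vehicle IgG 2, 17692 in mavrilimumab 1 and 8016 in mavrilimumab 2, and in microglia of these libraries 5686, 2510, 8163 and 5739 CPM. The 3 cells of vehicle IgG 1 thus lay above vehicle IgG 2, and microglia had the same order of libraries, with vehicle IgG 1 and mavrilimumab 2 close together. Single cells weighed on the sums: in mavrilimumab 1, 1 cell of 28 held 125 of 242 UMIs of Isg15 and 41 of 84 of Ifit3. Without mavrilimumab 1, in a fit that also held vehicle IgG 1, the median log2 difference was 1.38, and 33 of 35 genes tested were positive. Without mavrilimumab 2, in such a fit, it was 2.96, and 38 of 38 were positive. In the reported libraries without the low-count filter it was 2.345, and 41 of 42 were positive.

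More interferon genes passed once the cells with dendritic genes were left out, an alternative chosen after the data were seen. Of 5902 genes, 448 were then called, 231 of them higher (3.91%), and 33 of 40 interferon genes were called higher, with a median log2 difference of 3.09. Without the cells that carried granule genes, a choice also made after the data were seen, 0 of 40 were called (median 1.88), and 0 of 40 without marked doublets (1.97) or after empty-droplet subtraction (2.30). The same transcripts were found in T cells, where Isg15 had a UMI in 32.8%, 20.6%, 60.7% and 48.5% of cells in vehicle IgG 1, vehicle IgG 2, mavrilimumab 1 and mavrilimumab 2, at median depths of 12942, 2621.5, 3815 and 11119 UMIs. The gated cells had one in 33.3% (1 of 3 cells), 20.8%, 78.6% and 48.4%. For Ifit3 the shares were 21.98%, 9.62%, 48.1% and 38.0% of T cells and 33.3%, 4.17%, 57.1% and 27.4% of gated cells. The part of free RNA in the difference was not tested.

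The promoters of these genes were searched for the interferon-stimulated response element, written here as GAAANNGAAA, on both strands, in 250 bases before to 50 after each start site in the RefSeq table of GRCm38.p6. It was found in 20 of 33 interferon genes with an entry (60.6%), against 943 of 27025 promoters of all genes (3.49%), 5 of 20 MHC class I genes (25%), 2 of 16 chemokine genes (12.5%), 1 of 13 progenitor genes, 1 of 15 classical monocyte genes, 0 of 8 MHC class II genes and 0 of 13 homeostatic microglia genes. Matches on both strands and overlapping matches were counted as present. Of the 4 genes with values above, Isg15, Ifit3 and Rsad2 had 3, 2 and 1 matches and Irf7 had 0, and the 3 promoters with a match are shown. Capitals mark the matches, TTTCNNTTTC being the same element on the other strand. They lie at chr4:156200769-156201068 (minus strand), chr19:34583279-34583578 (plus strand) and chr12:26456403-26456702 (minus strand).
Isg15: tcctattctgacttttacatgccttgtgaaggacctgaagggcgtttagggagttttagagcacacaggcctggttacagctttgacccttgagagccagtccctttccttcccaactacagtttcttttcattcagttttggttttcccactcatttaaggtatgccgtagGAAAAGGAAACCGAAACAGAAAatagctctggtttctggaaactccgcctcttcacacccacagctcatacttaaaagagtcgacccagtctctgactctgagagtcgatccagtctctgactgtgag
Ifit3: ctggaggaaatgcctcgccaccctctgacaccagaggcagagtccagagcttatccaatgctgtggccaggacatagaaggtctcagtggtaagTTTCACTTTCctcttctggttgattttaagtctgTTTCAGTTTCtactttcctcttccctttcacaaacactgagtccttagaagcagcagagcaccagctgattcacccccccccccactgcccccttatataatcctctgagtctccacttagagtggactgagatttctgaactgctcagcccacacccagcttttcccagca
Rsad2: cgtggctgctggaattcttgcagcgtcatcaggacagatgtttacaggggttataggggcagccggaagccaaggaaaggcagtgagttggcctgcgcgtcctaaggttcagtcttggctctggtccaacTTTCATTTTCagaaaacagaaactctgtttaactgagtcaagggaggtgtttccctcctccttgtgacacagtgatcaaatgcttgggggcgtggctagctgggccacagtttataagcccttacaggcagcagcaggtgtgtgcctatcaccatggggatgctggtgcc
A match is a description of the sequence and does not show binding.

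**Figure D5:**
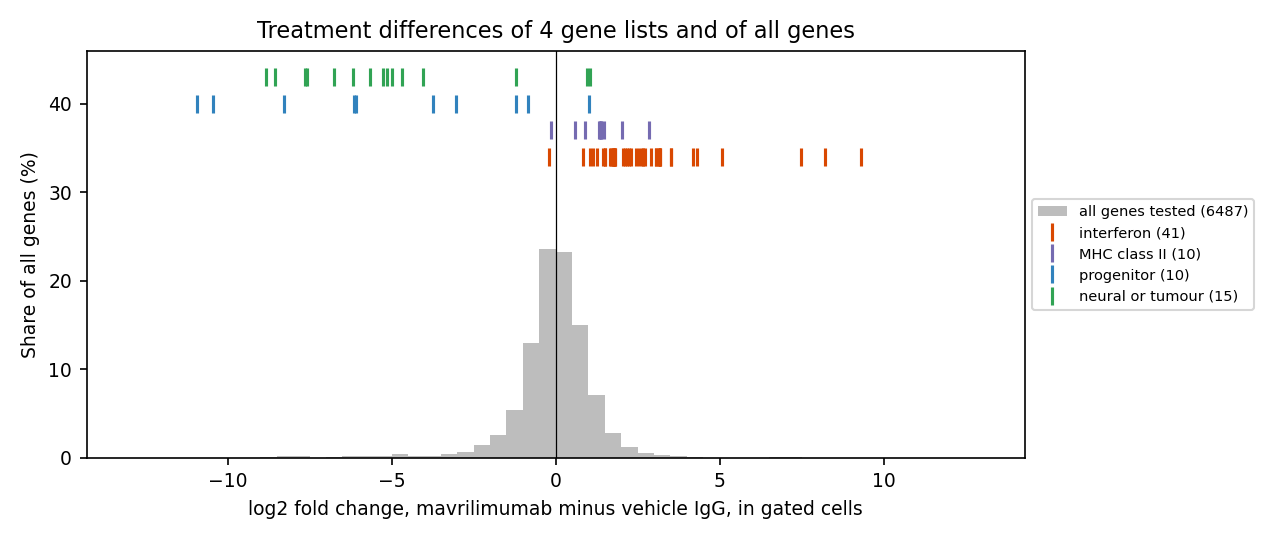
Share of all 6487 genes by log2 difference between mavrilimumab and vehicle IgG in gated cells (grey, bins of 0.5), with 1 mark per gene for 4 lists above. Interferon genes had a median of 2.30, MHC class II genes of 1.37, progenitor genes of -4.91 and neural or tumour genes of -5.26. Some progenitor and neural or tumour genes entered the fit through vehicle IgG 2 alone.

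MHC class II genes lay higher in mavrilimumab for 9 of 10 genes tested, with a median log2 difference of 1.37, and none passed the test. H2-Aa had 0, 2217, 7104 and 4086 CPM and Cd74 36.1, 6395, 22458 and 12125 CPM by library in the order above. The median cell held 6.01 UMIs of the list per 10000 in vehicle IgG 2, 334 in mavrilimumab 1 and 71.3 in mavrilimumab 2. The share of cells with at least 3 dendritic genes, 22.9%, 21.4% and 51.6% in those libraries, was seen at unequal depths (median 4978, 6699.5 and 17419 UMIs), and its part in these levels was not tested. At 3000 UMIs per cell, Clec9a was seen in 23.1%, 3.57% and 32.2% of cells, against 22.9%, 17.9% and 51.6% unthinned. The classical monocyte list had 14 of 20 positive differences and the cell cycle list 0 of 14, with 2 of the latter called lower (Stmn1, Rrm2). Stmn1 had 619, 28.9 and 80.9 CPM.

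Of 26 suppressor and inflammatory genes of tumour-associated myeloid cells, 23 were detected in gated cells. Their summed level was 3282, 2243, 3305 and 2345 CPM by library, against 1715, 888, 1506 and 2098 CPM in microglia. Of 15 compared with microglia, 3 were called higher and 2 lower, where 4.57% and 8.79% of all genes were. Cybb, a subunit of the phagocyte oxidase, had 372, 1231 and 572 CPM in gated cells of the last 3 libraries against 14.6, 136 and 62.4 CPM in microglia. Nos2, Ido1 and Chil4 had no UMI in any gated cell, and Arg1 had 1 UMI in mavrilimumab 1. Cd274, the ligand PD-L1, was seen in 2 of 3, 1 of 48, 2 of 28 and 5 of 62 cells. Of 13 genes of the list tested by treatment, none was called. Il1b, the interleukin-1 beta gene, had 108, 124, 91.4 and 145 CPM, with the treatments overlapping.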

How the data were processed

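The authors deposited unfiltered counts of UMIs per gene and barcode from droplet 5′ gene expression libraries. The submitters' processing notes name Cell Ranger 7.1.0, Scanpy 1.8.2 and mm10, whereas the file headers carry a later Cell Ranger version. The barcodes of the deposited T cell receptor files were compared with those of the expression libraries, and 1 receptor library labelled vehicle IgG was not used here, nor was Ddx58 of the interferon list. Some genes of the lists are not reported here by name.

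The gated cells and the gene lists were chosen with earlier results of these data known. Markers, microglia, the Ly6c2 and Ms4a7 split and their folds are therefore descriptions. Counts were summed per library and tested with edgeR 4.0.16 in R 4.3.3 (TMM, filterByExpr, quasi-likelihood test, Benjamini-Hochberg). Libraries needed 20 gated cells. The standard error of a log2 difference was its size over the root of the F statistic. Shares were compared by exact permutation over libraries with scipy 1.17.1. Doublets were not removed, since the selection does not ask for it. Empty droplets were barcodes with at most 100 UMIs. The empty-droplet share of a summed profile was set from the neural or tumour list without Vim, Mbp and Nfix, which were dropped after their levels in gated cells were seen. Genes named without a list were the 10 with the largest rise and fall past the test at 20 CPM or more, the 15 with the largest ratio each way against microglia, and 5 each way for the difference from microglia. Genes named between cells with Ly6c2 only and with neither gene, and the groups of granule, dendritic and patrolling genes counted per cell, were chosen after their values were seen. The fold and edgeR code was tested on simulated data. Alternatives were other normalizations, filters, depths, doublet removal, empty-droplet subtraction, DESeq2 1.42.0, a replicate block and leaving out each library.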

Additional observations from a re-analysis of the deposited data

Results flagged for a closer look

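The treatment difference was also compared between gated cells and microglia of the same 3 libraries, with library as a block (edgeR quasi-likelihood test of the interaction). It differed for 291 of 12795 genes (2.27%), 127 in the direction of mavrilimumab and 164 in the other. In fits that also held vehicle IgG 1 it differed for 1 gene with all libraries, 5 without mavrilimumab 2 and 20 without mavrilimumab 1. The genes with the largest negative values were Mpo (-12.8), S100a8 (-10.6), Ppp1r9a (-9.42), Eya4 (-9.27) and Sncaip (-9.17), and those with the largest positive values Gzmc (13.02), Mgp (11.7), AA467197 (9.78), Arl14ep (9.77) and Col9a3 (9.77), on the log2 scale. S100a8, an alarmin of neutrophils and monocytes, had 694, 0 and 93.0 CPM in gated cells of vehicle IgG 2, mavrilimumab 1 and mavrilimumab 2 and 0.512, 8.25 and 114 CPM in microglia, and 1 cell held 93 of its 100 UMIs in mavrilimumab 2. Mgp, a matrix gene, had 0, 9.62 and 0 CPM in gated cells, and its 436 CPM in microglia of vehicle IgG 2 was 0 and 6.06 CPM in the other libraries. Each of the 10 genes had no UMI in gated cells of at least 1 of the 3 libraries, so the size of its value depends on the prior count of the fit. Microglia of vehicle IgG 2 carried 7884 CPM of the neural list, against 297 and 513 CPM in those of the mavrilimumab libraries, and the part of this RNA in the differences was not tested.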

How the results depend on the processing

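The 86 genes called by treatment became 50 with DESeq2 size factors, 566 without the low-count filter, 47 at 2000 UMIs, 19 without marked doublets, 8 after empty-droplet subtraction and 30 with the Wald test of DESeq2. Alternatives added after seeing the data gave 22 without cells that carried granule genes and 448 without cells that carried dendritic genes. With all 4 libraries 0 genes were called, and 0 with the replicate number as a block, with 168 and 186 at an unadjusted p under 0.05; a count of 0 in both says nothing of the pairing. Leaving out each library from the fit of all 4 gave 9 to 25 (22 without vehicle IgG 2, 9 without mavrilimumab 1 and 25 without mavrilimumab 2). Leaving out vehicle IgG 1 is the reported fit. In several of these alternatives some of the 86 genes did not pass the low-count filter and were not tested again, as given above. The replicate numbers come from titles only, and the deviations of same-numbered libraries correlated at r = 0.22 over 3808 genes. With the block the shares differed by 0.541 and 5.17 points as before, at exact permutation p = 0.5. The 291 genes that differed from microglia became 181 without marked doublets, 1 with all libraries, 5 to 249 when each library was left out of those 4 (249 without vehicle IgG 2, 20 without mavrilimumab 1, 5 without mavrilimumab 2), and 0 after empty-droplet subtraction (33 at an unadjusted p under 0.05), where microglia of mavrilimumab 1 were taken as 100% empty-droplet RNA, so this value is not informative. Genes higher than in microglia became 519 after that subtraction and 424 to 479 without each library. Genes lower became 432 with a pseudocount of 10 CPM, 1343 at 5 CPM and 754 to 917 without each library. Counts of libraries with at least 5 cells of each kind were those reported, since no library was added. Leaving out each library turned the sign of 8 genes, in each case without vehicle IgG 2 and not past the test there. By treatment these were Prtn3 (-7.01 to 6.98) and Stmn1 (-3.44 to 7.79), and against microglia S100a8 (-12.3 to 9.19), Ppp1r9a (-8.74 to 1.16), Eya4 (-8.94 to 0.0763), Sncaip (-8.79 to 0.70), Mgp (-1.03 to 20.3) and Arl14ep (-0.33 to 2.14), as log2 values. The differences in shares kept their direction, except that of Ly6c2-only cells with vehicle IgG 1 and its 1 split cell added (-0.62 points, exact permutation p = 1). In the other alternatives they ranged from 0.194 to 0.887 points for barcodes, 1.99 to 8.35 for gated cells plus microglia and 0.861 to 15.2 for Ly6c2-only cells, and no p was below 0.33. The planned folds between Ly6c2-only and Ms4a7-only cells were not run, because no library held 20 of each. That minimum was not applied to the added folds between Ly6c2-only cells and cells with neither gene. The depth of the gated cells, 55459 to 1075582 UMIs per library, sets the floor of 3 counts at 2.79 to 54.1 CPM.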
